A study of Mus musculus with 4 samples.

Results

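Regions of open chromatin that were called in both wild-type (WT) keratinocyte libraries and in neither Mapk8-KO library are described here. Peaks of 4 ATAC-seq libraries that shared 1 bp or more were joined, which gave 82641 regions. Where 4 values are given in library order, they are those of WT 1, WT 2, Mapk8-KO 1 and Mapk8-KO 2. A region was kept when it held a peak of WT 1 and of WT 2 and no peak of Mapk8-KO 1 or Mapk8-KO 2. This left 1796 WT-only regions, or 2.17% of all regions. The reverse rule gave 1367 Mapk8-KO-only regions (1.65%), and 40159 regions held a peak of every library. The members were thus selected on the measured peak calls, so their presence in WT and absence in Mapk8-KO lists is the selection and not a result.

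ATAC-seq uses the Tn5 transposase to insert sequencing adapters into accessible DNA. The 4 libraries came from keratinocytes, sorted as EpCam+ CD49f-high cells from the abdominal skin of female mice aged 8 to 12 weeks per the study's methods. All mice, WT and Mapk8-KO, had received a cream with 5% imiquimod (Aldara) for 8 days, so no untreated skin enters. Per the methods, Mapk8-KO mice carried Mapk8 fl/fl and a Cre recombinase under the KRT14 promoter, which is active in basal keratinocytes and not in immune cells, and controls were littermates. Whether the WT mice carried the floxed allele or Cre is not given in the sources used here, and neither is the number of mice per library. Replicates are therefore separate libraries, and any test measures the spread between libraries only.

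Mapk8 encodes JNK1, a kinase of the mitogen-activated protein kinase family. JNK phosphorylates c-Jun, a subunit of the AP-1 transcription factors, which are dimers of JUN, FOS and related proteins that bind the heptamer TGAGTCA. In epidermis AP-1 factors act at many enhancers of differentiation, stress and wound-response genes. An enhancer is an element, usually far from promoters, whose accessibility varies between cell types and states, whereas most promoters of expressed genes stay open. A MACS2 peak is a stretch where fragments pile up above the local background, so a region without a peak in a list can still hold fragments below the calling threshold.

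The sequences below are shown because, of the motifs searched, the share of the AP-1 heptamer differed most between WT-only and Mapk8-KO-only regions. Each is a 101-base window of mm10, plus strand, centred on the strongest summit of the region, named by the gene with the nearest coding start site. Capitals mark TGAGTCA or its reverse complement TGACTCA. The first 4 are among the 5 WT-only regions with the highest fold enrichment that hold a heptamer in the window. The next 4 belong to genes of the EGF receptor, MAP kinase, Notch and TGF-beta lists and were chosen after their values were seen. The last 2, at Areg and Fcgr3, hold no heptamer.
Focad, chr4:88392502-88392602: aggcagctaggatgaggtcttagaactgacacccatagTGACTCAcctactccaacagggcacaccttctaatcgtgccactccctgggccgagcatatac
Stk4, chr2:164140307-164140407: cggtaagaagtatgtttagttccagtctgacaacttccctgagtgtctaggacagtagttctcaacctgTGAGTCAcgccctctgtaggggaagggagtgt
Speer3, chr5:13667521-13667621: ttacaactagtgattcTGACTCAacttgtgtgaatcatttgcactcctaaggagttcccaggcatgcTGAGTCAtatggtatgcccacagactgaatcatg
Psd3, chr8:67716874-67716974: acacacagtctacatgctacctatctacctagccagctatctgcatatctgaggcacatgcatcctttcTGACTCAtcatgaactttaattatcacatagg
Spred2, chr11:19666867-19666967: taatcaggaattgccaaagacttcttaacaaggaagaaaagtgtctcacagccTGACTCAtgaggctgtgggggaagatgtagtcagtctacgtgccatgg
Dusp4, chr8:34573062-34573162: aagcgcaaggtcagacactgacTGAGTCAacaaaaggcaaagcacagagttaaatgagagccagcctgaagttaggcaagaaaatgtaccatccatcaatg
Jag1, chr2:137014550-137014650: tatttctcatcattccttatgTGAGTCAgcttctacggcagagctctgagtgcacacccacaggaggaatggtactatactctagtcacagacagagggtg
Inhba, chr13:15777773-15777873: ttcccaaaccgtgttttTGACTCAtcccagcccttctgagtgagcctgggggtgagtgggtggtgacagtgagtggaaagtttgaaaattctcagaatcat
Areg, chr5:91210276-91210376: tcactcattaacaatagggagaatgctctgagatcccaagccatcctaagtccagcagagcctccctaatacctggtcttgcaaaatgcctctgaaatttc
Fcgr3, chr1:171074380-171074480: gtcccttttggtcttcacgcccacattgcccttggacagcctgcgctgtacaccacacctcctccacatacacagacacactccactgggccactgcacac

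The heptamer lies near the middle of the window at Focad and Spred2 and toward an edge at Dusp4 and Inhba. The window at Speer3 holds 2 copies.

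Library depth differed more within than between genotypes. With WT 1 set to 1, WT 2 had a depth of 0.691, Mapk8-KO 1 of 1.12 and Mapk8-KO 2 of 0.644, estimated from summit pileups of the regions called in all 4 libraries. The lowest pileup that was called as a peak was between 8 and 10 fragments in the 4 libraries. The sorted cells carried open regions at all 8 keratinocyte marker genes examined, 94 regions in all, whereas the T cell list held 1 region, and Cd3d, Cd3g, Cd4, Cd8a, Trac and Trdc had none. Melanocyte markers also had regions, 53 in total over 4 of 6 genes, with none at Pmel and Tyr. Fibroblast markers had 26 regions over 5 of 6 genes, and endothelial markers had 40 over all 6. Open regions at marker genes were thus not confined to the keratinocyte list. No WT-only region lay at a T cell, melanocyte or fibroblast marker gene.

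WT-only regions were weakly accessible. Their median summit pileup, the number of fragments over the summit, was 19 in WT 1 (lowest 9, highest 104) and 15 in WT 2 (lowest 8, highest 72). Regions called in all 4 libraries had medians of 49 and 34. The median fold enrichment over local background was 5.43 in WT 1 and 5.53 in WT 2, against 9.17 and 8.69 for the regions called in all 4. The WT-only regions were also narrow, with a median width of 292 bp (quartiles 242 and 368) against 606 bp. These levels are not independent of the selection, since a weak region is the kind of region that can be missed in a list.

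**Figure D1:**
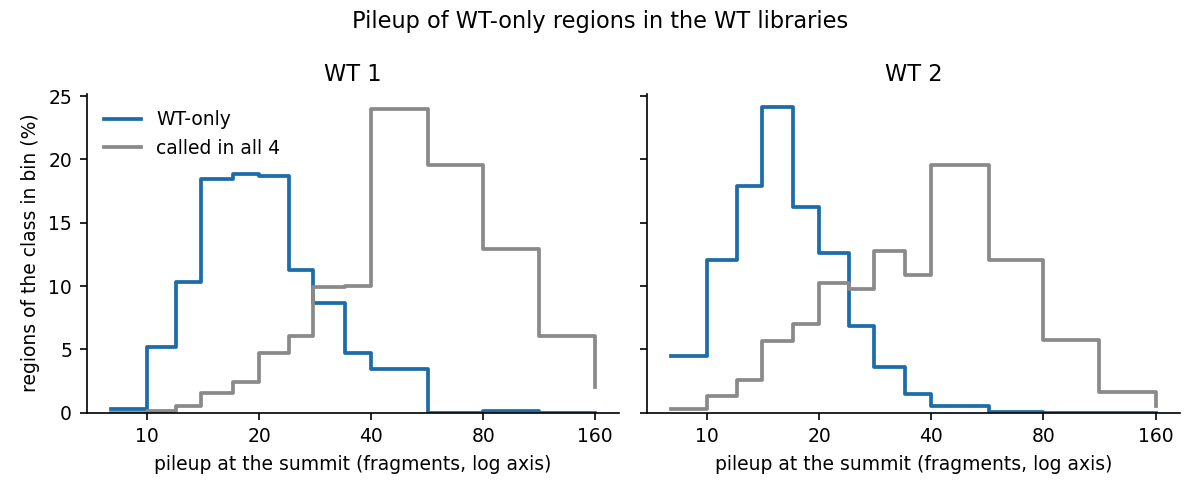
Summit pileup in fragments (log axis, drawn to 160) in WT 1 (left) and WT 2 (right), as the percentage of each class per bin, for the 1796 WT-only regions (blue) and the 40159 regions called in all 4 libraries (grey). The WT-only regions centre on medians of 19 and 15 fragments, below the medians of 49 and 34 of the regions called in all 4.

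The peak lists give no value for a WT-only region in the Mapk8-KO libraries. To place the members against the calling limit there, their mean log2 WT pileup was scaled to the depth of each Mapk8-KO library. The scaled pileup had a median of 22.7 in Mapk8-KO 1, where 1766 of 1796 regions (98.3%) reached the 5th percentile of called peaks, 14 fragments. In Mapk8-KO 2 the median was 13.1, and 1316 regions (73.3%) reached the 5th percentile of 11 fragments. These are the WT pileups that the rule selected as called, so they are raised by the selection and say nothing of whether the regions would have been called in the Mapk8-KO libraries. Of the members, 193 members (10.7%) had a scaled pileup at or above the median called peak of Mapk8-KO 1 and 64 (3.56%) at or above that of Mapk8-KO 2. The number of members followed the libraries used: 3667 without WT 1, 9348 without WT 2, 10037 without Mapk8-KO 1 and 2118 without Mapk8-KO 2. Leaving out a library drops 1 condition of the rule, so the number could not fall.

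Just outside the rule stood 8187 regions with a peak in both WT libraries and Mapk8-KO 1 only. Their median pileups were 27 in WT 1, 20 in WT 2 and 26 in Mapk8-KO 1. Another 316 regions held a peak in both WT libraries and Mapk8-KO 2 only, with medians of 19, 15 and 13. The class that Mapk8-KO 2 alone missed was therefore larger than the WT-only class, and the class that Mapk8-KO 1 alone missed was smaller. A further 7507 regions had a peak in WT 1 only and 1811 in WT 2 only.

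Some members lay beside a Mapk8-KO peak without touching it. A Mapk8-KO peak was within 100 bp of 19 members, within 500 bp of 106 (5.90%) and within 1 kb of 232 (12.9%), and the closest was 4 bp away. The median distance to the nearest Mapk8-KO peak was 6.69 kb. Most members thus lay more than 1 kb from any Mapk8-KO peak.

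WT-only regions were mostly distal. By GENCODE annotation 812 (45.2%) had their midpoint in an intron, 68 (3.79%) in an exon and 916 (51.0%) in neither, with introns counted for coding genes. A total of 149 regions (8.30%, Wilson 95% interval 7.11 to 9.66) lay within 2 kb of a coding transcription start site (TSS), called promoter regions here. This compares with 11.9% of Mapk8-KO-only regions, 30.4% of regions called in all 4 libraries and 20.8% of all regions. The difference from the Mapk8-KO-only class was -3.55 percentage points, with p = 0.667 by a two-sided exact permutation test over the 6 assignments of labels to the 4 libraries. It was -6.67 points without WT 1, -2.29 without WT 2, -2.23 without Mapk8-KO 2 and -10.3 with lists of equal length. With 2 libraries per genotype this test cannot give a p below 0.333, so none of the comparisons between genotypes in this design could pass 0.05.

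The median distance from a member to its nearest coding TSS was 31.8 kb (quartiles 10.6 and 79.5). It was 36.5 kb for Mapk8-KO-only regions, 15.4 kb for regions called in all 4 and 21.7 kb for all regions. By bins, 143 members lay under 2 kb from the TSS, 285 at 2 to 10 kb, 702 at 10 to 50 kb, 306 at 50 to 100 kb, 325 at 100 to 500 kb and 35 beyond 500 kb. The bin of 10 to 50 kb was thus the fullest (39.1%), whereas in regions called in all 4 the bins under 2 kb and 10 to 50 kb held similar shares, 29.9% and 30.4%. The difference of medians between the 2 genotype classes was within the spread of the other label assignments (exact permutation p = 1) and changed its sign without WT 1, where it was 9972.5 bp in place of -4615 bp.

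**Figure D2:**
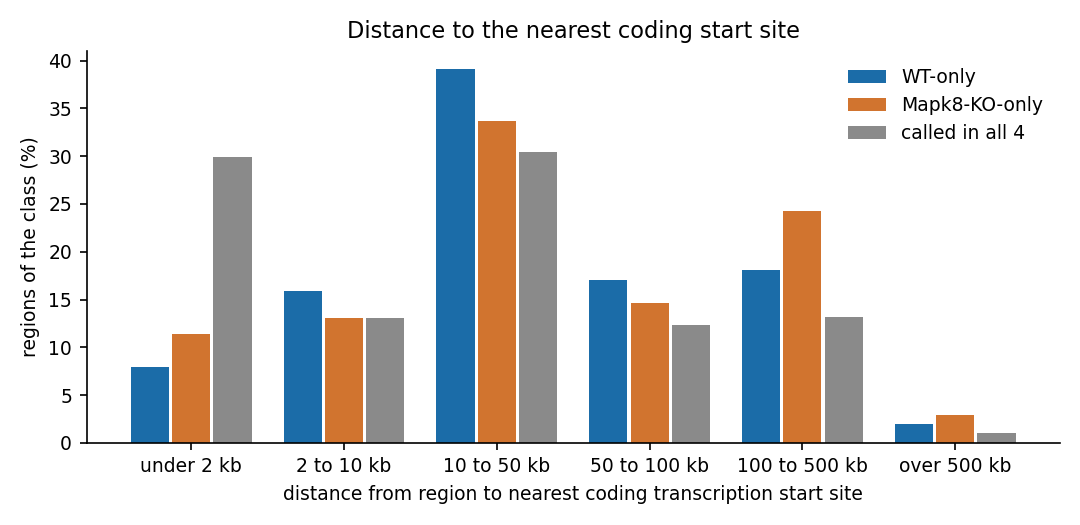
Percentage of regions (vertical axis) by distance from the region's midpoint to the nearest coding TSS (horizontal axis) for WT-only (blue), Mapk8-KO-only (orange) and regions called in all 4 libraries (grey). Of the WT-only regions, 7.96% lie under 2 kb from a TSS against 29.9% of the regions called in all 4, and 39.1% lie at 10 to 50 kb.

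The AP-1 heptamer was found within 100 bp of the summit in 643 WT-only regions (35.8%, 33.62 to 38.05). It was found in 99 Mapk8-KO-only regions (7.24%, 5.99 to 8.74), in 24.4% of regions called in all 4 libraries and in 23.7% of all regions. The difference between the genotype classes was 28.6 percentage points, and the exact permutation p was 0.333, the smallest the design allows. Leaving out a library kept the direction and lowered the difference to 18.4 points without WT 1, 17.4 without WT 2 and 18.4 without Mapk8-KO 2, while it was 32.0 without Mapk8-KO 1. The regions missed by Mapk8-KO 2 alone held the heptamer in 38.7%, and those missed by Mapk8-KO 1 alone held it in 14.2%. The AP-1 share thus varied with which Mapk8-KO library lacked the peak, and depth and library cannot be told apart from genotype in this respect with 2 libraries each. Of the regions with a peak in WT 1 only or WT 2 only, 23.2% and 25.7% held the heptamer.

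Within the WT-only class the heptamer was more frequent in peaks with a higher fold enrichment. Pileup did not run the same way: the median of the mean WT pileup was 26.5 at folds under 3 and 19 at folds of 5 or more. Among members whose lower WT fold enrichment was under 3 it was present in 20.5% (9 of 44), at a fold of 3 to 4 in 26.4%, at 4 to 5 in 32.3% and at 5 or more in 42.3% (372 of 880). At the same folds, regions called in all 4 libraries held it in 11.01%, 11.7%, 15.6% and 25.7%, and Mapk8-KO-only regions in 2.70%, 6.25%, 7.55% and 8.24%. In each of the 4 fold classes the WT-only share was the highest of the 3, although for folds under 3 the interval of the WT-only share overlapped those of both other classes. The intervals cover counting error only.

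**Figure D3:**
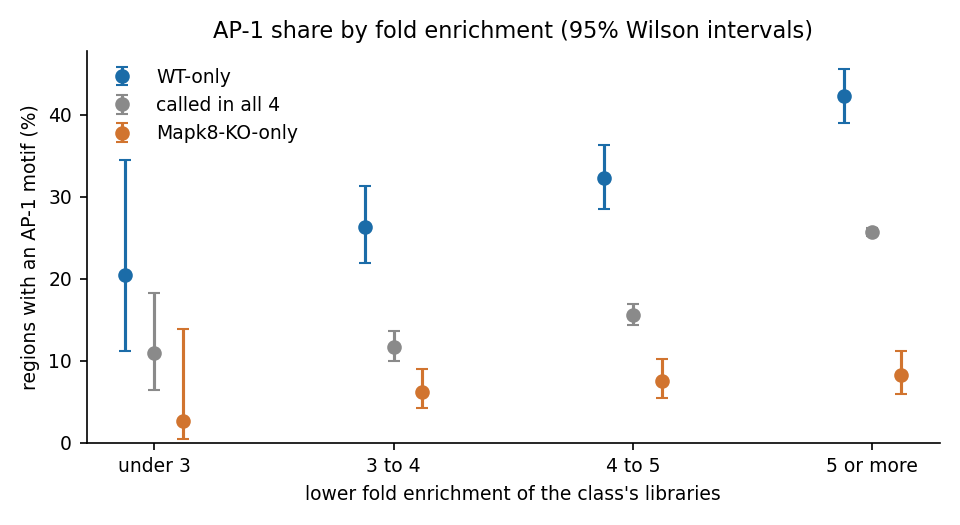
Percentage of regions with an AP-1 heptamer within 100 bp of the summit (vertical axis) by the lower fold enrichment of the libraries concerned, the WT libraries for WT-only (blue) and all-4 regions (grey) and the Mapk8-KO libraries for Mapk8-KO-only regions (orange). Points are shares and bars are 95% Wilson intervals. WT-only shares run from 20.5% to 42.3%, Mapk8-KO-only shares from 2.70% to 8.24%.

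The heptamers lay close to the summits. The median distance from motif to summit was 28 bp in WT-only regions, 31 bp in regions called in all 4 and 40 bp in Mapk8-KO-only regions. In 292 of the 643 members with a heptamer (45.4%) it lay within 25 bp, and 71 (11.04%) held at least 2. Frequencies were highest in the bins 20 to 30 bp to either side of the summit, at 4.12 and 4.51 motifs per 100 WT-only regions, and lower in between. Regions called in all 4 showed the same bins as their highest, at 2.75 and 2.74 per 100 regions.

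**Figure D4:**
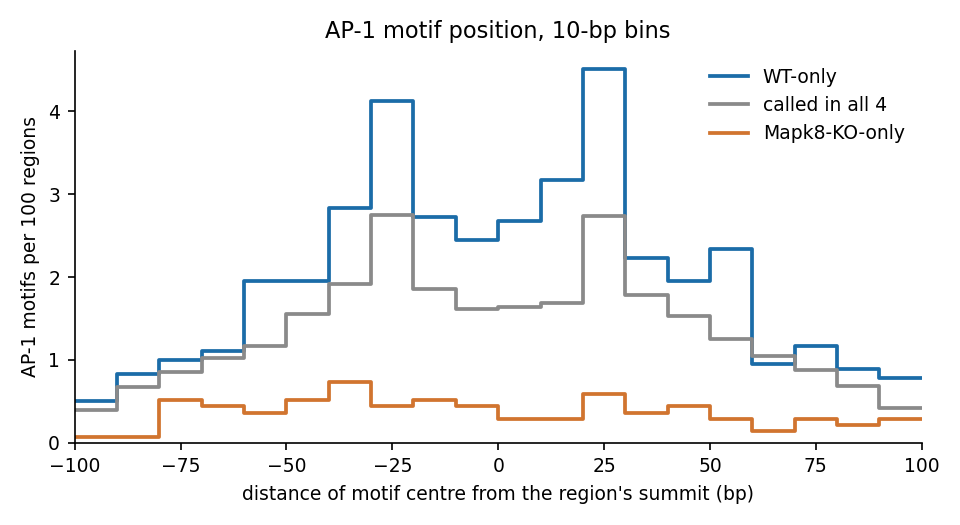
AP-1 heptamers per 100 regions (vertical axis) in 10-bp bins by distance from the region's summit in bp (horizontal axis) for WT-only (blue), all-4 (grey) and Mapk8-KO-only regions (orange). WT-only regions reach 4.12 and 4.51 per 100 in the bins 20 to 30 bp from the summit, on either side.

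The difference was found at promoters as well as away from them. Of the promoter members 26.2% held the heptamer, against 6.91% of promoter regions called in all 4 libraries and 6.17% of Mapk8-KO-only promoter regions. Of members outside promoters 36.7% held it, against 32.1% of the all-4 regions and 7.39% of Mapk8-KO-only regions there. Against the regions called in all 4, the distance between the shares was therefore wide at promoters and narrow outside them.

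Of 18 motifs searched on both strands in the same windows, AP-1 differed by far the most between WT-only and Mapk8-KO-only regions. Against regions called in all 4 libraries SP/KLF differed more, at 6.79% against 25.3%, where AP-1 stood at 35.8% against 24.4%. The CTCF motif, of the insulator protein, was found in 3.67% of WT-only regions, 7.53% of Mapk8-KO-only regions and 4.62% of all regions. The SP/KLF box GGGCGG, common in CpG-rich promoters, was in 6.79%, 10.5% and 17.2% in the same order, and the E-box CAGCTG in 11.6%, 15.4% and 13.4%. The GRHL motif AACNNGTT, of the grainyhead-like epidermal factors, was in 3.95%, 6.73% and 5.19%. The TEAD motif GGAATG, of the Hippo pathway's DNA-binding partners, was in 15.4%, 14.05% and 13.2%. After Benjamini-Hochberg adjustment over the 18 motifs every exact permutation p was at least 0.923. Within the WT-only class, CTCF motifs stood mostly in regions without AP-1, in 60 of them (5.20%) and in 6 regions with AP-1 (0.933%).

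Base composition differed little. The median GC content of the 201 bp around the summit was 47.3% in WT-only, 49.3% in Mapk8-KO-only and 52.2% in all-4 regions, with exact permutation p = 0.667 for the genotype classes. More than 50% of the window was repeat-masked in 170 members (9.47%), against 5.34% of Mapk8-KO-only and 3.51% of all-4 regions. AP-1 heptamers were present in 28.8% of these 170 members.

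The members with the most fragments lay close to regions called in all 4 libraries. The region with the highest pileup, chr1:171074316-171074533, lies 15.0 kb upstream of Fcgr3, a receptor for immunoglobulin G. It had 104 fragments in WT 1 and 72 in WT 2, over local backgrounds of 27.1 and 19.3, and folds of only 3.74 and 3.60. A region called in all 4 libraries lay 1.504 kb away, with 206, 150, 166 and 102 fragments in library order. The next in rank, in an intron of Spaca6 on chromosome 17, had 81 and 47 fragments, with folds of 3.25 and 2.64. The other 8 of the 10 members with the highest depth-scaled pileup in the lower WT library were nearest to Pdgfc, Smurf1, Acer2, Rab5a, Gpc5, Zfand5, Zdhhc13 and Ppia. The shared region nearest to the Smurf1 member was weaker than the member, with 32, 25, 29 and 18 fragments in library order against 51 and 36 in WT. All 10 lay within 3.59 kb of a region called in all 4, and 2 of them, at Gpc5 and Ppia, held the heptamer.

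Ranking by fold enrichment, an order chosen after the data were seen, brought up members farther from regions called in all 4 libraries. A region 267.8 kb upstream of Chd6, a chromatin remodeller, had 44 fragments in WT 1 and 45 in WT 2, with folds of 12.3 and 13.9. Its nearest region called in all 4 libraries was 34.7 kb away and had 46 and 41 fragments in WT against 21 and 17 in Mapk8-KO, so that the WT values lay above the Mapk8-KO values there too. The region in an intron of Focad, whose heptamer is shown above, had 39 and 38 fragments with folds of 12.3 and 13.9. The intronic region of Stk4, the gene of the Hippo pathway kinase MST1, had 40 and 25 fragments with folds of 13.1 and 10.3. The remaining 7 of these 10 were nearest to Tmem236, Sema3d, Tspan11, Mllt3, Speer3, Hs3st2 and Akap11. Of the 10, 5 held the heptamer, and 7.64 kb was the shortest distance to a region called in all 4.

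The same contrast ran through the class, although local background is taken around the peak and so is not independent of the distance to other open regions. In 1410 members the local background was at most 1.5 times the lowest of the library, 37.1% held the heptamer, and the median distance to a region called in all 4 was 17.2 kb. In 144 members the background was over 3 times the lowest, 29.2% held the heptamer, and the median distance was 1.79 kb.

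At promoters, the 5 members with the highest pileup were those of Zdhhc13, Ppia, Mat2b, Zfyve16 and Scyl3. The Zdhhc13 member, of a palmitoyltransferase gene, had 48 and 45 fragments 1.33 kb upstream of the TSS. The Ppia member, of the cyclophilin A gene, had 55 and 32 fragments 0.701 kb upstream. The Scyl3 member lay 30 bp upstream of the TSS, held a heptamer, and had 42 and 36 fragments with folds of 3.99 and 5.00. Each of these 5 promoters also had a region called in all 4 libraries within 1.16 kb, beside the WT-only peak. At Zdhhc13 that neighbour had 144, 94, 167 and 90 fragments in library order.

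By nearest coding TSS the members were assigned to 1559 genes, or 9.30% of the 16758 coding genes with any region. Of these genes 1365 had 1 WT-only region, 161 had 2, 26 had 3, 4 had 4 and 3 had 5. Genes with a Mapk8-KO-only region numbered 1193, or 7.12% of the 16758. Both classes were found at 204 genes, which is 13.1% of the first list and 17.1% of the second. These shares are to be read against the 7.12% and 9.30% among all genes with a region. The number of regions per gene was not taken into account. The nearest gene is a label of position and need not be the gene a region acts on.

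The 3 genes with 5 members were Ptprz1, Adgrl2 and Abca1. At Ptprz1, a receptor tyrosine phosphatase gene, 5 of 18 regions were WT-only and none Mapk8-KO-only, spread over 244.4 kb, and none held the heptamer. The strongest of them, chr6:22701932-22702229, 173.4 kb upstream, had 36 and 34 fragments. The shared region nearest to it had 40, 39, 36 and 17 fragments in library order, a log2 difference of WT over Mapk8-KO of 0.70 after depth scaling. At Adgrl2, a gene of an adhesion G protein-coupled receptor, 5 of 100 regions over 960.9 kb were WT-only and 2 Mapk8-KO-only.

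At Abca1, the gene of the cholesterol efflux transporter, the 5 members formed the densest group of the class. They lay upstream of the gene within 40.5 kb, chr4:53166625-53207081, 6.85 to 47.1 kb from the TSS. Of all 18 regions at Abca1, 1 was Mapk8-KO-only. The 8 regions of this interval comprised the 5 members and 3 regions called in all 4 libraries. Pileups of the members were 16, 23, 15, 34 and 20 fragments in WT 1 and 21, 16, 12, 25 and 13 in WT 2, in order from the gene outward. The first, the second and the last of them held the heptamer. The shared regions between them did not follow one direction: the one beside the second member had 60, 48, 60 and 32 fragments in library order, and the one beside the third and the fourth had 26, 24, 40 and 34.

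The genes with 4 members were Gm11146 (of 38 regions), Sox9, 1700025G04Rik (of 29) and Dlg2 (of 53). Of these, Sox9 and Dlg2 also had 1 Mapk8-KO-only region each. Sox9, a transcription factor gene of hair follicle stem cells, had 4 of 79 regions, 18.6 to 351.6 kb downstream, and 3 of them held the heptamer. Their pileups were 15, 21, 24 and 14 fragments in WT 1 and 14, 26, 21 and 12 in WT 2. The 4 members at 1700025G04Rik, 3 of them with the heptamer, and those at the scaffold gene Dlg2 lay in introns of these genes. From the 26 genes with 3 members, Sspn (of 21 regions), Cited2 (of 71) and Tenm4 (of 48) were taken by their summed WT pileup. Cited2 had 3 Mapk8-KO-only regions as well. All these genes were picked for their counts, and 2.17% of all regions were WT-only.

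WT-only regions were scattered along the chromosomes rather than grouped. With midpoints up to 50 kb apart counted as a group, 1530 members stood alone, 120 pairs formed, and 8 groups of at least 3 held 26 members. The median distance from a member to the next was 295.6 kb. Of the 3592 regions that flank a member in the atlas, 122 (3.40%) were themselves WT-only, which is 1.56 times the 2.17% of the class among all regions. For Mapk8-KO-only regions the ratio was 1.99, and the difference was within the spread of the label assignments (exact permutation p = 0.667). It changed sign without WT 1, at 0.231, and without Mapk8-KO 2, at 0.00932, against -0.427 with all libraries.

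After the Abca1 group, the tightest groups held 3 members each. The group between Cpsf6 and Cpm on chromosome 10 spanned 33.0 kb and the group in Banp on chromosome 8 spanned 36.8 kb. The Cpm group had 10, 22 and 42 fragments in WT 1 and 9, 18 and 34 in WT 2, with no heptamer. The Banp group had 26, 17 and 11 fragments in WT 1 and 19, 12 and 12 in WT 2, with a heptamer in the last. Per chromosome, the share of regions that were WT-only ran from 1.61% on chromosome 19 to 2.66% on chromosome 12, and none of the 22 regions on Y was a member. Chromosome 14, which carries Mapk8, had 64 members (1.93%).

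The gene lists show how the members fall over pathways of keratinocytes. Counts are of regions by nearest coding TSS and are to be read against the 2.17% of all regions that were WT-only. The 14 lists ranged from 1.01% to 2.99%. None was tested, and a share near the background is no result about a list. Mapk8-KO-only regions, 1.65% of all regions, made up 0.223% to 3.69% of the regions of these lists. WT-only regions outnumbered Mapk8-KO-only regions in 10 of the lists, as they did among all regions. They were fewer in the AP-1 and ATF, the TLR, NF-kB and STAT and the cell cycle lists, and both classes had 2 regions in the cornified envelope and keratin list. The lists below are ordered from signalling to structure.

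Of 395 regions at genes of the EGF receptor family, its ligands and feedback regulators, 4 (1.01%) were WT-only. They lay at Areg, the amphiregulin gene, at Cblb, a ubiquitin ligase that limits receptor signalling, and at the feedback inhibitors Errfi1 and Spred2. The Areg member, chr5:91210084-91210581, is 70.7 kb downstream of the TSS, outside coding genes. It had 17 fragments in WT 1 and 24 in WT 2, with folds of 5.75 and 9.87 and no heptamer. It was 1 of 18 regions at Areg, and the nearest region called in all 4 libraries, 9.65 kb away, had 74, 48, 86 and 35 fragments in library order, which overlap between genotypes. The Cblb member had 18 and 13 fragments in an intron, with a heptamer. A member in an intron of Egfr itself, nearest to the TSS of Fbxo48, had 18 fragments in each WT library. By nearest TSS, no region of Egfr, Hbegf, Mapk8, Elovl1 or Tgm3 was WT-only. At Cdc20, whose product activates the anaphase-promoting complex, 1 of 4 regions was WT-only, 9.70 kb upstream of the TSS, with 19 and 16 fragments.

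Of 363 regions of the JNK, p38 and ERK cascade, 7 (1.93%) were WT-only, among them regions at Dusp4, Map2k6, Map3k8 and Mapk10. The strongest, downstream of the kinase gene Map3k8 on chromosome 18, had 39 and 37 fragments with folds of 3.61 and 4.51. Mapk10 encodes JNK3, and its member, 94.99 kb upstream, had 25 and 16 fragments. The phosphatase gene Dusp4 had 2 members, and the distal one, shown above with its heptamer, had 23 and 21 fragments. The AP-1 and ATF factor genes had 3 of 196 regions (1.53%), with 5 (2.55%) Mapk8-KO-only, at Fos, Maf and Atf2, none with the heptamer. The Fos member, 13.995 kb upstream, had 30 and 20 fragments with folds of 3.64 and 3.39.

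Of 889 regions at epidermal transcription factor genes, 15 (1.69%) were WT-only, over 11 genes. Besides Sox9 and Klf5, with 4 and 2 members, these were Elf3, Gata3, Gata6, Grhl1, Hopx, Rora, Runx1, Trp63 and Vdr. The strongest, 20.2 kb downstream of Hopx, a homeodomain gene, had 38 and 30 fragments, 1.88 kb from a region called in all 4. Trp63, the p63 gene that maintains stratified epithelia, had a member in its own intron with 19 and 11 fragments. Cornified envelope and keratin genes had 2 of 158 (1.27%), at Cnfn (cornifelin) with 44 and 27 fragments and at the caspase gene Casp14.

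TGF-beta and BMP genes had 14 of 473 regions (2.96%) over 10 genes, and 6 (1.27%) were Mapk8-KO-only, near the 1.65% of all regions. The WT-only ones included the ligands Tgfb2, Tgfb3, Bmp2, Bmp7 and Inhba (the activin subunit, with 3 members), the receptors Tgfbr2, Tgfbr3, Acvr1 and Bmpr1b, and the inhibitor Smad7. The Bmp7 member, 98.8 kb downstream, had 28 and 18 fragments with folds of 9.26 and 7.50. WNT and Notch genes had 11 of 481 (2.29%), with 3 at Jag1, 3 at Hes1, 2 at Lef1 and 1 each at Notch2, Maml2 and Fzd1, and 6 of the 11 held the heptamer. The strongest of these, upstream of the Notch target Hes1, had 33 and 24 fragments. Axon guidance families had 16 of 687 (2.33%), among them 3 at the plexin gene Plxna2, and the Sema3d member had 33 and 28 fragments.

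Cell junction and matrix adhesion genes had 11 WT-only regions of 448 (2.46%), and 1 region (0.223%) was Mapk8-KO-only, where the shares among all regions were 2.17% and 1.65%. The WT-only ones lay at the integrin genes Itgav and Itgb1, the kindlin gene Fermt1, the catenin genes Ctnnb1 and Ctnna1, the cadherin gene Cdh1, the plakophilin gene Pkp1 and the vinculin gene Vcl. The Itgav member, in an intron with a heptamer, had 35 and 30 fragments with folds of 5.67 and 6.21, and was the only member of the 11 with the heptamer. Actin cytoskeleton and migration genes had 13 of 607 (2.14%) over 11 genes, 6 with the heptamer, led by an intronic region of Arhgef3 with 37 and 24 fragments. Matrix protease and plasminogen activator genes had 5 of 167 (2.99%), at Adamts5, Plat, Serpinb2 and Timp3, of which the Timp3 member had 39 fragments in each WT library.

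Cytokine, chemokine and alarmin genes had 5 of 179 (2.79%), with 1 region (0.559%) Mapk8-KO-only, at Il1rn, Il1f6, Il19, Il17ra and Defb4. The Il1rn member, 3.62 kb upstream of the gene of the interleukin-1 receptor antagonist, had 45 and 35 fragments with folds of 4.30 and 4.54. TLR, NF-kB and STAT genes had 4 of 372 (1.08%), with 7 (1.88%) Mapk8-KO-only, at Traf6, Tyk2, Tnfaip3 and Osmr, led by the Tyk2 member with 34 and 23 fragments. Cell cycle genes had 3 of 244 (1.23%), at Aurkb, Cdc20 and Cdkn2a, against 9 (3.69%) that were Mapk8-KO-only.

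The marker lists of other cell types were short. The 8 myeloid and Langerhans cell markers had 22 regions over 6 genes, with none at Itgam and Lyz2. Of these 22 regions 3 (13.6%) were WT-only, the highest share of any list and above the 2.17% of all regions. All 3 lay at Ptprc, which encodes CD45. Their pileups were 22, 26 and 13 fragments in WT 1 and 24, 26 and 9 in WT 2. The summed depth-scaled pileup of the myeloid list was 454.5, 418.2, 380.4 and 208.8 in library order. Such sums, here and for the endothelial list, hold called regions only. By the rule the members add to the WT sums alone, so the order of the libraries is not independent of the selection. The endothelial list had 2 WT-only regions of 40 (5.00%), both in introns of Pecam1, which encodes CD31, with list sums of 776.1, 941.6, 859.7 and 719.8, which overlap. Neither list had a Mapk8-KO-only region. Per the study's methods, antibodies to CD45, CD31 and CD140a were in the stain used for the sort, all with 1 dye that differed from those of EpCam and CD49f. The part of other cell types in the WT-only class was not tested.

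The nearest region called in all 4 libraries was a median of 12.2 kb from a WT-only region (quartiles 4.86 and 29.9), against 15.0 kb from a Mapk8-KO-only region and 8.73 kb between neighbouring all-4 regions. Of the members 787 (43.8%) had such a region within 10 kb and 121 (6.74%) within 1 kb. The difference between the genotype classes gave p = 0.667 in the exact permutation test, and without WT 1 it changed sign, at 3599.5 bp in place of -2751.5 bp.

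The 1703 distinct neighbours of the members called in all 4 libraries have pileups in every library and were not used by the rule. Their median log2 difference, mean of WT minus mean of Mapk8-KO after depth scaling, was 0.02 (quartiles -0.19 and 0.26). It was -0.04 for the neighbours of Mapk8-KO-only regions, and the difference of 0.05 had an exact permutation p of 0.333. Both WT values exceeded both Mapk8-KO values at 406 neighbours (23.8%), where 20.3% of all regions called in all 4 did so. The reverse held at 312 (18.3%), where the background was also 20.3%. The excess over the background was thus small. Among the 777 neighbours within 10 kb, WT was higher at 25.2% and Mapk8-KO at 15.3%. The excess did not appear among the 121 neighbours within 1 kb, at 15 (12.4%) with WT higher and 22 (18.2%) with Mapk8-KO higher. On the scale of within-library percentiles of fold enrichment the difference between the 2 sets of neighbours had the opposite sign, at -1.07 percentile points.

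**Figure D5:**
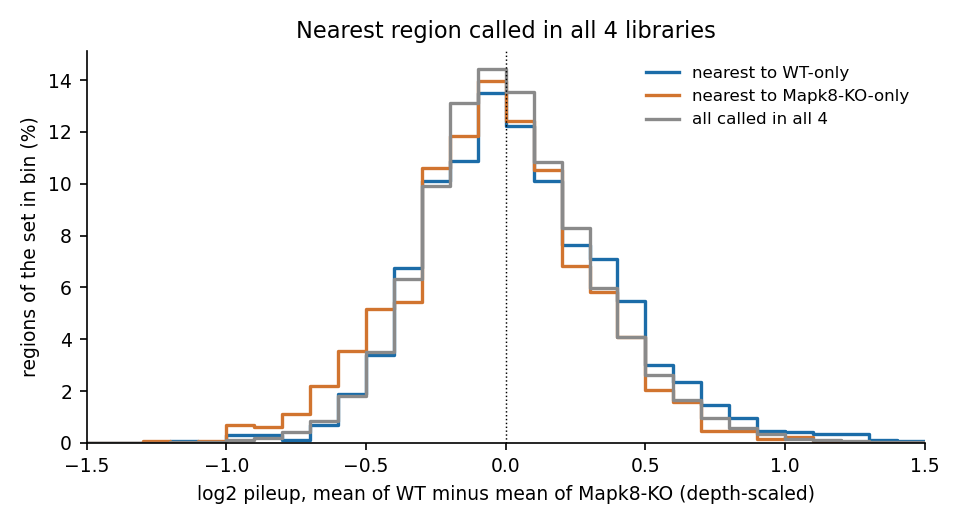
Distribution of the depth-scaled log2 pileup difference, mean of WT minus mean of Mapk8-KO (horizontal axis), as the percentage of regions per bin (vertical axis), for the all-4 regions nearest to WT-only regions (blue), nearest to Mapk8-KO-only regions (orange) and all regions called in all 4 (grey). The medians are 0.02, -0.04 and -0.01, and the distributions overlap almost wholly.

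Neighbours that themselves held the AP-1 heptamer differed from those without. Of 429 neighbours with the heptamer 168 (39.2%) had both WT values above both Mapk8-KO values and 36 (8.39%) the reverse, with a median log2 difference of 0.21. Among all regions called in all 4 that hold the heptamer these shares were 32.6% and 10.9%, with a median of 0.13. Of the 1274 neighbours without it, 18.7% had WT higher and 21.7% had Mapk8-KO higher, with a median of -0.04. The difference between regions with and without the heptamer was thus present beside the members as it was in the whole set, where 16.4% of regions without it had WT higher.

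The promoters of the genes assigned to members did not follow the members. Among 1163 promoter regions called in all 4 libraries whose gene had a WT-only region outside promoters, the median log2 difference was -0.11. WT was higher at 10.3% and Mapk8-KO at 34.7%. For all 12189 promoter regions called in all 4 the median was also -0.11, with 8.94% and 29.8%.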

How the data were processed

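ATAC-seq peak lists of 4 libraries were analysed, 2 WT and 2 Mapk8-KO, grouped by their labels. Per the study's methods, reads were mapped to mm10 with Bowtie2 and peaks were called in each library with MACS2, whereas the submitters' processing notes also name Trimmomatic, STAR, Picard and SAMtools. Each list gives per peak the authors' fold enrichment, −log10 p and −log10 q, a score derived from q and the summit offset. No file of counts was used and total depth is unknown.

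The summit pileup was recovered from these fold and p columns as a whole number (tolerance 0.05). This worked for 100% of simulated peaks. Pileups were scaled by medians over regions called in all 4 libraries. Distances run from region midpoints to coding TSSs of GENCODE M21. A promoter region has an edge within 2 kb of a coding TSS. Sequence was read from RefSeq GRCm38.p6, the assembly that mm10 denotes, in which every peak ended within its chromosome. Groups were compared by exact permutation tests over all label assignments (Python 3.11.15) and shares have Wilson 95% intervals, which cover counting error only.

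Named genes were the 10 with the most members, the 10 regions and 5 promoter regions with the highest depth-scaled pileup in the lower WT library, the top region of each gene list, 3 groups of members, and 7 genes the study names. The members, gene lists and rules were chosen with earlier results of these data known. Alternatives comprised stricter q, lists of equal length, 50% cover, summit windows, other promoter and motif windows, no Mapk8-KO peak nearby, and each library left out. A limit on local background, the alternatives for further motif shares and the ranking by fold were chosen after seeing the data. The deviations of same-numbered libraries were hardly correlated (r = 0.04 over regions), so the numbers were not used to pair libraries, although replicate 2 was the shallower library of both genotypes. Some members are not reported here by name.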

Additional observations from a re-analysis of the deposited data

How the results depend on the processing

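Of 95 recomputed values of the main results, 84 kept their direction or stayed within 1.5 times the count, 8 changed sign and 3 counts moved. The AP-1 difference between WT-only and Mapk8-KO-only regions stayed positive under all 14 alternatives (17.4 to 32.0 percentage points), the promoter difference negative under 13 (-10.3 to -2.23) and the GC difference negative under 11 (-2.99 to -0.995). The number of WT-only regions ran from 2118 to 10037 with 1 library left out, which loosens the rule, so that the number could only rise. The TSS distance changed sign with lists of equal length (7275.5 bp), with TSSs of all genes (84.5 bp) and without WT 1 (9972.5 bp). The distance to regions called in all 4 did so with lists of equal length (805 bp) and without WT 1 (3599.5 bp). The flanking ratio did so without WT 1 (0.231) and without Mapk8-KO 2 (0.00932), and the neighbours' difference with percentiles of fold (-1.07 points). Outside the 95 values, the TEAD share changed sign with low local background (-0.0235 points). Its alternatives were chosen after seeing the data. With each library left out, the values ran from -9514.5 to 9972.5 bp, from -6655 to 3599.5 bp and from -0.919 to 0.231 for the TSS distance, the distance to regions called in all 4 and the flanking ratio. The cause was not tested. With a replicate block, the neighbours' log2 difference was 0.0695 (0.0459 and 0.0931 in the 2 pairs), with an exact sign-flip p of 0.5, the smallest possible with 2 pairs. The lists hold called peaks only, so accessibility below the calling limit was not measured.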
